A study of Drosophila melanogaster with 30 samples.

Results

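The genes described here are 9 listed partners of Domino (dom) in the Tip60 chromatin complex of Drosophila melanogaster, namely Tip60, Ing3, MRG15, YL-1, Nipped-A, E(Pc), DMAP1, pont and rept, and the histone variant gene His2Av that the complex acts on. They were taken by name, not by measured level, and each of the 10 was 1 row of the 17807 gene rows in every library, matched through its FlyBase identifier. The data are nuclear RNA-seq counts from outer photoreceptors of males at day 30 after eclosion. Outer photoreceptors are the motion-sensing receptor neurons of the compound eye, and Rh1 is their visual pigment. Flies were kept at 25 C in cycles of 12 h light and 12 h dark. All 10 groups carried Rh1-GFPKASH, a tag on the nuclear envelope by which nuclei were immunoenriched, and Rh1-Gal4, which drove 1 short hairpin RNA (shRNA) per group. The hairpins were directed against dom, Spt5, Cdk12, Spt6, Taf1, TH1, Top1, cnc or Trl in 9 knockdown groups. In the control group the hairpin was directed against LexA, a bacterial gene with no fly counterpart. Each group had 3 biological replicates, so 30 libraries were compared. The Rh1 promoter is active in differentiated, non-dividing photoreceptors, and LexA flies carried both Rh1 transgenes too.

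The Tip60 complex of flies joins activities that yeast keeps in the separate NuA4 and SWR1 complexes. Tip60 acetylates histones, and Domino is a Swi2/Snf2 type ATPase that exchanges H2Av, the product of His2Av, in nucleosomes. H2Av is the only H2A variant of flies and serves in the places of both H2A.Z and H2A.X of mammals. Several subunits are shared: Nipped-A also belongs to SAGA, pont and rept to INO80 and to the R2TP cochaperone, and MRG15 to Sin3 and Ash1 complexes.

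Libraries held 4064250 to 18024440 gene counts. Files of the Spt5 and Cdk12 libraries had 17814 rows, and those of the other 24 libraries 17816. Reads outside annotated features amounted to 55.4 to 172 per 100 gene counts, and reads aligned to several places to 59.2 to 94.5 per 100 in Spt5, 72.9 to 82.6 in Cdk12 and 12.8 to 33.0 in the other 24 libraries. The rhodopsin gene ninaE was at 7818 CPM or more in every library, and no outer photoreceptor marker was at 0 in any group. CPM are counts scaled to a common library size. Summed CPM of 10 outer photoreceptor markers was 58414, 73502 and 63768 in dom, 24300, 25146 and 72374 in Spt5, and 89651, 95769 and 85930 in LexA. Of these 10 markers, 1 was lower in dom and 7 in Spt5 than in LexA. Summed CPM of 7 markers of other neurons was 336, 541 and 490 in dom, 1076, 913 and 312 in Spt5, and 325, 290 and 236 in LexA. Of those 7 markers 2 were higher in dom and 6 in Spt5, beside 10.4% and 16.5% of all genes called in either direction. Among markers of inner photoreceptors 0 of 6 were higher in dom and 5 in Spt5, of glia 0 of 7 and 5, of cone, pigment and corneal cells 1 of 5 and 4, of fat body and hemocytes 0 of 6 and 3, and of muscle 0 of 6 and 0, by edgeR against LexA. In either direction, an unadjusted p under 0.05 was reached by 0, 4, 2, 1 and 1 markers of these 5 lists in dom and by 5, 5, 4, 5 and 0 in Spt5. DESeq2 called 0, 3, 1, 0 and 0 in dom and 5, 5, 4, 4 and 0 in Spt5. Over all 14888 genes DESeq2 called 2422 in dom and 3309 in Spt5, and the share at the unadjusted p was not counted. Dom replicate 1 and Spt5 replicate 3 stood apart from their group mates, nearer to LexA in the neuronal markers, and results on these 2 groups are also given without them. In the outer photoreceptor sum, dom replicate 1 was the dom library farthest from LexA. Both libraries had the most reads outside features of their groups. Per 100 gene counts these were 122 in dom replicate 1, against 64.7 and 71.7, and 106 in Spt5 replicate 3, against 55.4 and 65.6. The dom gene itself was at 241, 362 and 366 CPM in dom libraries, 524, 445 and 286 CPM in Spt5 and 370, 348 and 366 CPM in LexA. Its log2 fold change in dom against LexA was -0.16 ± 0.20 (SE), which did not pass the test, so the counts of the dom row do not show the knockdown.

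Levels of the members differed widely when set per kb of annotated exon. The scaffold genes stood at the top, with median levels over 30 libraries of 32.6 CPM per kb for E(Pc) and 31.0 CPM per kb for Nipped-A. His2Av followed at 23.3 CPM per kb, next to dom, the ATPase gene, at 26.5 CPM per kb. The chromodomain gene MRG15 had 9.43, DMAP1 9.01, Tip60 7.89, the PHD finger gene Ing3 6.005, the histone-binding gene YL-1 4.68, pont 3.29 and rept 2.46 CPM per kb. Among all 14807 tested genes with an exon length, this placed rept at percentile 41.9 and E(Pc) at percentile 90.8 of the level per kb.

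Only 1 step in this order separated all libraries: His2Av lay above MRG15 in 30 of 30, with a median ratio of 2.44 and no overlap of the 2 ranges. Every other pair of neighbours overlapped. E(Pc) exceeded Nipped-A in 19 of 30 libraries, DMAP1 exceeded Tip60 in 17 of 30, and pont exceeded its partner rept in 23 of 30. The AAA+ ATPases pont and rept were also the members with the fewest reads, 22 to 128 counts for pont and 12 to 90 counts for rept, so small differences in them were not detectable at this depth. The median coefficient of variation within groups lay between 12.4% for E(Pc) and 21.4% for YL-1.

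**Figure D1:**
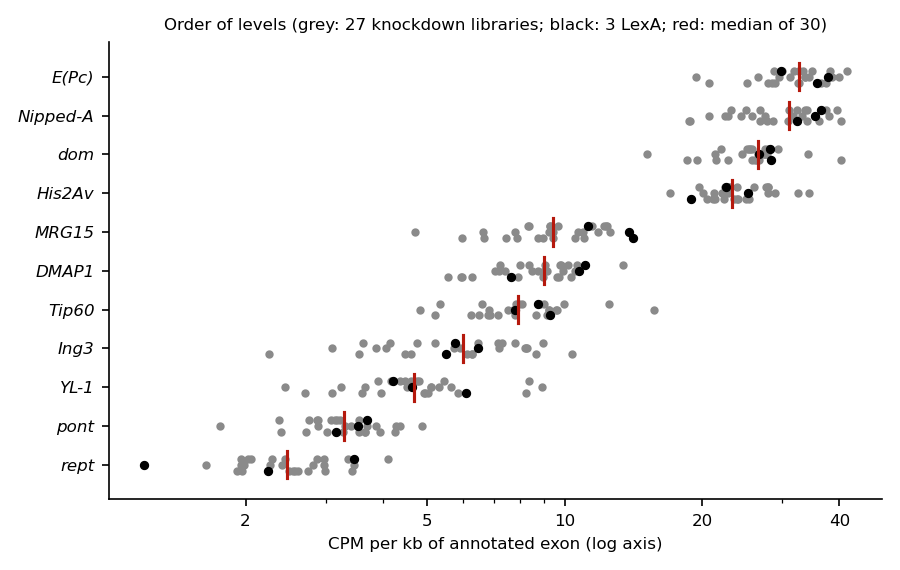
Level of each member and of dom in CPM per kb of annotated exon (log axis), 1 point per library, with 27 knockdown libraries in grey, the 3 LexA libraries in black and the median of 30 libraries as a red bar. E(Pc), Nipped-A, dom and His2Av form the upper block, and the gap between His2Av and MRG15 is the only one that no library crosses.

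Across all 10 groups, Tip60, MRG15 and Nipped-A varied more between groups than within them by edgeR with TMM scaling. In edgeR's quasi-likelihood F test of any difference among the groups, the adjusted p was 0.0045 for Tip60, 0.033 for Nipped-A and 0.044 for MRG15. These are 3 of 10 members, against 29.1% of all 14888 genes tested, so the share was that of the background. MRG15 lost its call with DESeq2 size factors, with no filter on low counts and with the share of reads outside features as a covariate, where Tip60 and Nipped-A were the 2 called, and DESeq2 called these 3 and Ing3. Ing3 had an adjusted p of 0.057 by edgeR, and the other 6 members lay between 0.22 and 0.83. The call of Tip60 held in each of 9 fits with 1 dom, Spt5 or LexA library left out, and Tip60 was the only member called in 7 of them. Without dom replicate 1 Tip60 and Ing3 were called, and without Spt5 replicate 3 Tip60, MRG15, Ing3 and Nipped-A.

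Tip60, the acetyltransferase subunit, was the member that differed most between the dom and Spt5 knockdowns. The gene lies on the X chromosome at 4114800 to 4117487, minus strand (FBgn0026080; BDGP6, Ensembl release 115). Its level was 22.1, 37.8 and 30.1 CPM in dom libraries, 12.6, 11.6 and 15.9 CPM in Spt5 libraries and 22.4, 18.8 and 21.1 CPM in LexA libraries. Dom replicates 2 and 3 were the 2 highest and Spt5 replicates 2 and 1 the 2 lowest of all 30 libraries, and the dom and Spt5 groups did not overlap.

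Tip60 was 2.25-fold higher in dom than in Spt5 (log2 fold change 1.17 ± 0.20 (SE), 95% interval 0.78 to 1.56, adjusted p = 2.5e-04 by edgeR). It was the only 1 of 10 members called in that comparison, where 8.19% of all genes were called and 18.8% had groups without overlap. The 1219 genes called there became 653, 624 and 2849 without Spt5 replicates 1, 2 and 3, 821, 705 and 883 without dom replicates 1, 2 and 3 and 369 with only the 6 libraries. The difference passed the test in all 12 alternatives tried, with log2 fold changes between 1.02 and 1.32 and adjusted p between 3.5e-08 and 0.041. Without dom replicate 1 it was 1.32, and without Spt5 replicate 3 it was 1.31. Without Spt5 replicate 3, MRG15 was called too (0.79, adjusted p = 0.020). Spt5 libraries also differed from dom libraries in reads aligned to several places and in file rows. None of the 12 alternatives separates these from the knockdown. Against Cdk12, which shares both features, Tip60 in Spt5 was not called (log2 fold change -0.45, edgeR adjusted p = 0.19).

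Each side of this difference was also set against other groups, with the same dom and Spt5 libraries. Against the mean of the 7 other knockdowns (cnc, Trl, Top1, Taf1, Cdk12, TH1 and Spt6), Tip60 was higher in dom by 0.66 ± 0.14 on the log2 scale (SE, adjusted p = 0.0014), the only 1 of 10 members called there, against 14.6% of all genes. It passed in all 8 alternatives, at 0.53 to 0.76. The 21 libraries of those 7 groups ran from 12.9 through a median of 18.9 to 24.03 CPM, and 2 of 3 dom libraries lay above all of them.

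Against LexA, Tip60 had a log2 fold change of 0.53 ± 0.20 (SE) in dom, which missed the threshold (adjusted p = 0.090, 95% interval 0.14 to 0.92). Dom replicate 1 lay within the LexA range and the other 2 above it. Without that library the log2 fold change was 0.68 (adjusted p = 0.043), DESeq2 gave an adjusted p of 0.040, and a fit of the 24 libraries other than Spt5 and Cdk12 gave 0.026. Over the 13 alternatives the adjusted p ran from 0.026 to 0.30.

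In Spt5, Tip60 fell against LexA by 0.64 on the log2 scale (SE 0.20, adjusted p = 0.030), with all 3 Spt5 libraries below all 3 LexA libraries. Against the 7 other knockdowns it stood at -0.51 ± 0.16 (SE, adjusted p = 0.021). The call against LexA rested on single libraries: leaving out Spt5 replicate 1 gave an adjusted p of 0.16, leaving out Spt5 replicate 2 gave 0.18, and leaving out LexA replicates 1, 2 and 3 in turn gave 0.11, 0.059 and 0.077. Against the 7 knockdowns the call was lost on leaving out Spt5 replicate 1 (adjusted p = 0.18) or replicate 2 (0.20).

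Spt5 replicate 3, the Spt5 library with the highest outer photoreceptor marker sum, also had the highest Tip60 level of its group. The part of cell type in the result was not tested, and in these bulk nuclei fewer cells of a type and less RNA per cell cannot be told apart. Without that library Tip60 had a log2 fold change of -0.77 against LexA (adjusted p = 0.010). Over all groups, mean Tip60 was highest in dom at 30.0 ± 7.84 CPM and lowest in Spt5 at 13.3 ± 2.24 CPM, next to Trl at 14.8 ± 1.81 CPM (SD, n = 3 each). The other 7 groups lay between 18.3 ± 1.08 CPM in Cdk12 and 22.4 ± 1.55 CPM in Taf1, and neighbours among these 7 overlapped, while every Cdk12 library lay above every Trl library.

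Tip60 exons share 376 bases (15.6%) with tyf and 130 bases (5.39%) with dgt4, both on the opposite strand, and the strand setting of the counts was not given in the sources used here. Neither neighbour was called: in dom against LexA, tyf had a log2 fold change of -0.30 ± 0.20 and dgt4 of 0.93 ± 0.73 (SE).

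**Figure D2:**
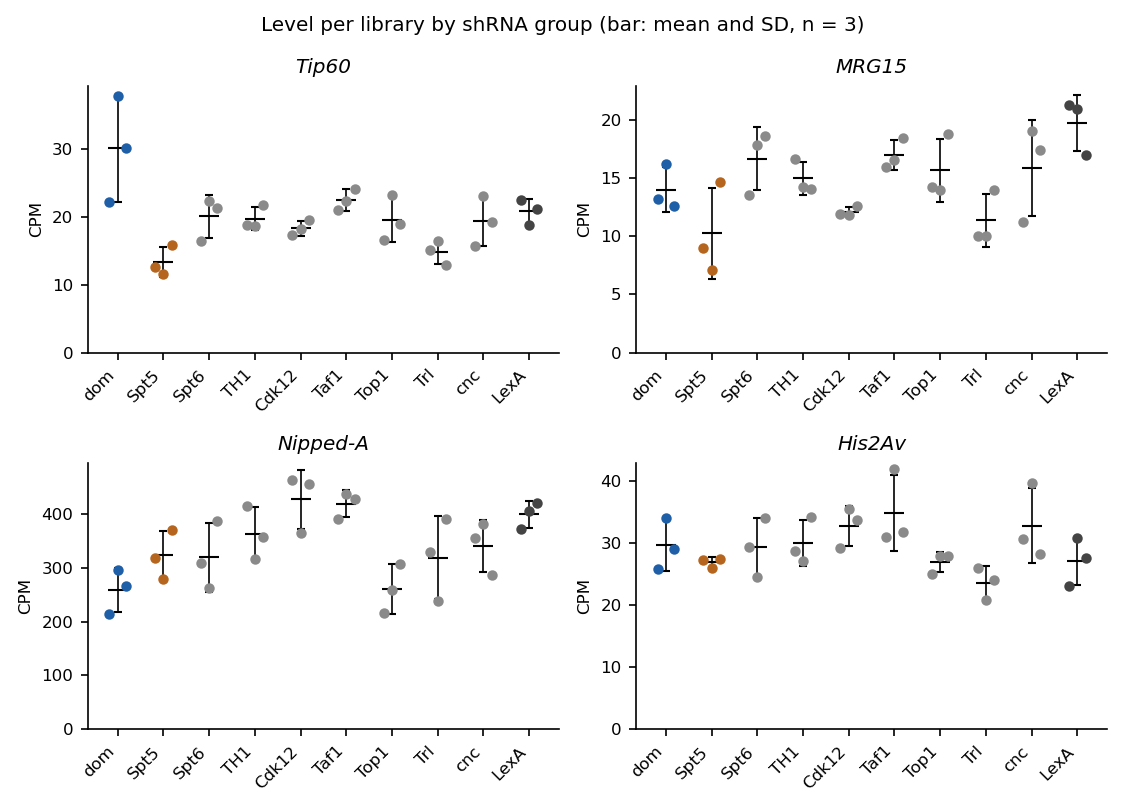
CPM of Tip60, MRG15, Nipped-A and His2Av in each library of the 10 shRNA groups, with the mean and SD (n = 3) as bars. Tip60 is highest in dom and lowest in Spt5, MRG15 is highest in LexA, Nipped-A is lowest in dom and Top1, and the His2Av groups overlap broadly.

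MRG15, whose chromodomain reads methylated H3K36, was lower in Spt5 than in LexA. The gene lies on 3R at 15276440 to 15278109, minus strand (FBgn0027378). Levels were 9.02, 7.09 and 14.6 CPM in Spt5 libraries, against 21.3, 20.9 and 17.0 CPM in LexA libraries, with no overlap of the groups. The log2 fold change was -0.94 ± 0.24 (SE, adjusted p = 0.0077 by edgeR).

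With Tip60, 2 of 10 members were lower and 0 were higher in Spt5 than in LexA, against 5.42% of all genes lower and 16.5% called in either direction. This background changed with single libraries: of 2450 genes called, 807 of them lower, the counts were 244 and 59 without Spt5 replicate 1, 593 and 89 without replicate 2, and 3726 and 1432 without replicate 3. Without LexA replicate 2 they were 1089 and 271, and with only the 6 libraries compared 2 of 11179 genes were called, both lower. The 2 calls have a matching pair in the comparison of Spt5 with the 7 other knockdowns, where Tip60 and MRG15 were again the 2 of 10 called (18.8% of all genes), MRG15 at -0.52 ± 0.18 (SE, adjusted p = 0.048). Both comparisons use the same 3 Spt5 libraries and are not independent. The median over the 10 members was -0.03 in Spt5 against LexA, beside 0.05 over all genes.

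Spt5 replicates 1 and 2 carried the MRG15 result. Leaving out Spt5 replicate 1 gave a log2 fold change against LexA of -0.84 (adjusted p = 0.082), leaving out replicate 2 gave -0.74 (0.086) and leaving out replicate 3 gave -1.28 (1.9e-04). Against the 7 knockdowns the same omissions gave -0.43 (adjusted p = 0.33), -0.33 (0.47) and -0.85 (0.0018) in that order. The outer photoreceptor marker sums of replicates 1 and 2 were the 2 lowest of the group, and their part in the result was not tested. With Cdk12, the other group with many reads aligned to several places, in place of LexA, the log2 fold change of MRG15 was -0.24 (adjusted p = 0.69) and that of Tip60 -0.45 (0.19).

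LexA held the highest MRG15 levels of the series. Of 27 knockdown libraries, 21 lay below all 3 LexA libraries and 0 above them, and the log2 fold change against LexA was negative in 9 of 9 groups, from -0.94 to -0.21. These 9 comparisons share the same 3 LexA libraries. Only the Spt5 difference was called. MRG15 was at 13.2, 16.2 and 12.6 CPM in dom (log2 fold change -0.49, adjusted p = 0.20), at 10.1, 10.0 and 14.0 CPM in Trl (-0.79, adjusted p = 0.062) and at 11.9, 11.8 and 12.6 CPM in Cdk12 (-0.71, adjusted p = 0.41). In all 3 of these groups every library lay below LexA. MRG15 exons share 129 bases (8.54%) with l(3)neo43 on the same strand and 35 bases with CG4338 on the other, and neither was called in dom or Spt5 against LexA.

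Ing3, a PHD finger subunit that binds methylated H3K4 (X, 18650718 to 18653091, minus strand), was called by edgeR in none of the comparisons over all libraries, was called by DESeq2 in the test of any difference, and spread widely within groups. It was at 10.3, 19.0 and 20.6 CPM in dom, 23.8, 18.8 and 8.32 CPM in Spt5, and 12.6, 14.9 and 13.2 CPM in LexA. Its lowest group mean was 7.73 ± 2.92 CPM in Trl and its highest 18.1 ± 1.72 CPM in cnc (SD, n = 3). Dom replicate 1 and Spt5 replicate 3, the 2 libraries that stood apart, had the lowest Ing3 and the most reads outside features of their groups. Without Spt5 replicate 3, Ing3 was called higher in Spt5 than in the 7 other knockdowns (0.77, adjusted p = 0.0090). YL-1, the subunit that binds H2Av (2L, 10970443 to 10972093, plus strand), lay between 3.56 and 13.0 CPM over all libraries, and its 95% intervals of the log2 fold change against LexA were -0.68 to 0.70 in dom and -0.44 to 0.94 in Spt5. Those intervals hold changes of either sign.

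Nipped-A, the fly homologue of TRRAP and the largest scaffold of the complex, was lower in dom than in LexA. The gene spans 2R at 5177965 to 5251022, minus strand (FBgn0053554), and of its 73058 bases 11519 are exonic. It was at 215, 296 and 267 CPM in dom libraries, against 373, 407 and 421 CPM in LexA libraries, without overlap. The log2 fold change was -0.62 ± 0.20 (SE, adjusted p = 0.043 by edgeR).

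Nipped-A was the only 1 of 10 members called in dom against LexA, where 10.4% of all genes were called and 6% were lower, so the count was that of the background. The 1543 genes called became 851 and 818 without dom replicates 2 and 3, 973 and 648 without LexA replicates 1 and 2, and 2565 with only the 6 libraries. The adjusted p of Nipped-A passed 0.05 by little and was lost when any 1 of the 6 libraries was left out: 0.13, 0.10 and 0.18 without dom replicates 1, 2 and 3, and 0.079, 0.14 and 0.13 without LexA replicates 1, 2 and 3. The log2 fold change stayed between -0.67 and -0.54 in those fits. In the fit of 24 libraries it was -0.52 (adjusted p = 0.062).

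Top1 libraries had nearly the same Nipped-A levels as dom libraries, 216, 259 and 309 CPM, all below LexA. There the log2 fold change was -0.61, not called by edgeR (adjusted p = 0.29) but called by DESeq2 (-0.59, adjusted p = 0.031). Against the 7 other knockdowns, which include Top1, Nipped-A was at -0.42 ± 0.16 in dom (SE, adjusted p = 0.074). Spt5 libraries were at 320, 280 and 371 CPM, also all below LexA, with a log2 fold change of -0.31 (adjusted p = 0.36). The highest group mean was 428 ± 55.2 CPM in Cdk12 and the lowest 260 ± 41.0 CPM in dom (SD, n = 3 each), and every neighbour in the order of the 10 groups overlapped.

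E(Pc), the Enhancer of Polycomb scaffold that anchors the acetyltransferase (2R, 11452043 to 11465270, plus strand), was not called in any comparison by edgeR over 30 libraries. Its levels were 227, 341 and 327 CPM in dom, 409, 367 and 315 CPM in Spt5, and 391, 413 and 326 CPM in LexA, and the groups overlapped. It was called in dom against LexA when only those 6 libraries were fitted (-0.50, adjusted p = 0.044), as was MRG15 (-0.64, adjusted p = 0.037), and in dom against the 7 other knockdowns by DESeq2 (-0.28, adjusted p = 0.045). DMAP1, a SANT domain subunit (2R, 20644036 to 20645865, plus strand), lay between 8.81 and 21.3 CPM over all libraries. Its log2 fold change was -0.32 ± 0.23 in dom and -0.10 ± 0.23 in Spt5 against LexA (SE), neither called.

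The ATPase pair pont (3R, 10262123 to 10263899, plus strand) and rept (3L, 19255340 to 19257111, plus strand, 1 exon and no intron) gave no call either. Their products assemble into a joint ring. Group means of pont ran from 4.17 ± 1.10 CPM in Cdk12 to 6.12 ± 0.26 CPM in TH1, and those of rept from 3.26 ± 0.31 CPM in Trl to 5.31 ± 1.70 CPM in Spt6 (SD, n = 3). In dom against LexA the log2 fold change was -0.14 ± 0.29 for pont and 0.16 ± 0.35 for rept (SE). The levels of pont and rept did not go together over libraries (Pearson r = -0.174 over 30 libraries, Spearman rho = -0.173, adjusted permutation p = 0.64 and 0.63 over 55 pairs).

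His2Av, which encodes the substrate of Domino (3R, 26866929 to 26869220, plus strand, FBgn0001197), showed no called difference. It was at 25.9, 34.1 and 29.1 CPM in dom, 27.3, 26.0 and 27.5 CPM in Spt5, and 23.1, 30.8 and 27.6 CPM in LexA, and the 3 groups overlapped. The log2 fold change against LexA was 0.13 ± 0.18 in dom (SE, 95% interval -0.22 to 0.48) and -0.01 ± 0.18 in Spt5 (-0.37 to 0.34). Dom against Spt5 gave 0.14 ± 0.18 (-0.21 to 0.49). All 3 intervals lay between -0.37 and 0.49.

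The highest His2Av levels were in Taf1, at 31.0, 42.0 and 31.8 CPM, all above the 3 LexA libraries. That difference was 0.36 on the log2 scale and not called (adjusted p = 0.92). Trl had the lowest group mean, 23.7 ± 2.64 CPM (SD, n = 3).

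**Figure D3:**
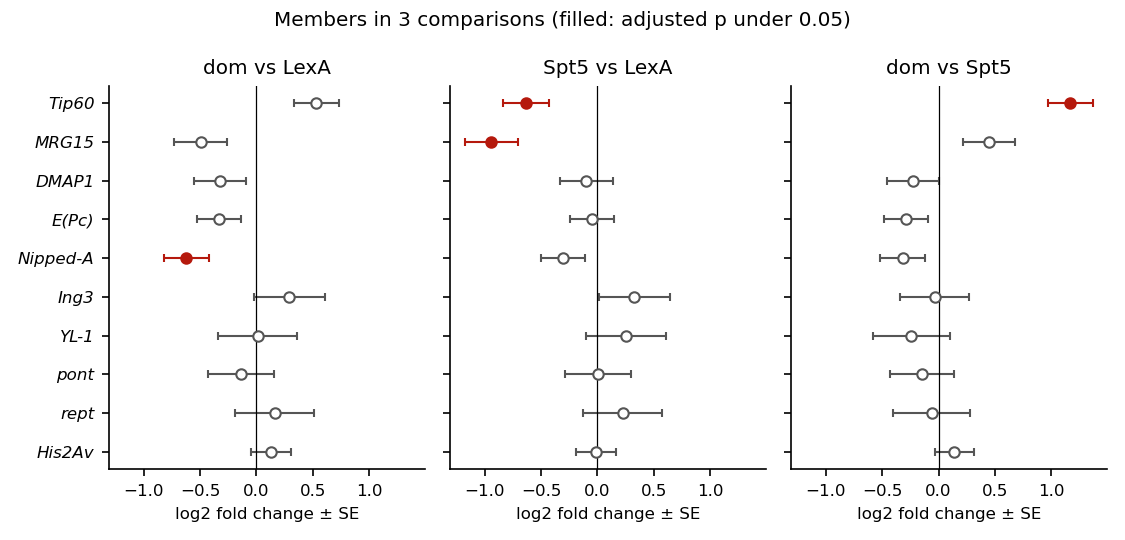
Log2 fold change with its SE of each member in dom against LexA, Spt5 against LexA and dom against Spt5, with filled red points at an adjusted p under 0.05. Nipped-A is called in the first panel, Tip60 and MRG15 in the second, and Tip60 alone, at 1.17, in the third.

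MRG15 and Nipped-A lay below the LexA range in both dom and Spt5, and Tip60 in Spt5, and the shares were near those of all genes. Groups did not overlap for 2 of 10 members in dom (MRG15 and Nipped-A, both below LexA), against 28.9% of all genes. In Spt5 they did not overlap for 3 of 10 (Tip60, MRG15 and Nipped-A, all below), against 22.3%. At an unadjusted p under 0.05 there were 3 members in dom and 2 in Spt5. The share of all genes at that threshold was not counted, but it is no smaller than the 10.4% in dom and 16.5% in Spt5 called after adjustment. The median over the members was -0.06 in dom against LexA, beside a median of 0.21 over all genes. Both medians moved with single libraries: without dom replicate 1 the medians were -0.10 and -0.01, without replicate 2 they were 0.04 and 0.41, and without replicate 3 they were 0.09 and 0.36. With only the 6 libraries compared the medians were -0.19 over the members and 0.0047 over all genes.

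No member was called by edgeR in the other 7 knockdowns against LexA, comparisons in which few genes were called at all. The shares of all genes called were 0.107% in Spt6, 0.202% in TH1, 0.195% in Cdk12, 0.148% in Taf1, 0.43% in Top1, 2.55% in Trl and 0.289% in cnc. At an unadjusted p under 0.05 there were 4 members in Trl, 1 in Cdk12 (MRG15), 1 in Top1 (Nipped-A) and 0 in the remaining 4 groups. The share of all genes at that unadjusted threshold was not counted, and the shares above, at the adjusted threshold, are no measure for these counts. DESeq2 called Nipped-A in Top1 and 0 members in the other 6. Over all genes DESeq2 called 1008 of 14888 in Trl, and its counts in the other 6 of these 7 comparisons are not given here. Groups did not overlap LexA for 3 of 10 members in Cdk12 (MRG15, pont and Ing3, all below), against 18.6% of all genes. They did not overlap for 1 member each in Spt6 (YL-1, below, 13.2% of all genes), TH1 (MRG15, below, 14.6%), Taf1 (His2Av, above, 14.4%), Top1 (Nipped-A, below, 17%) and cnc (Ing3, above, 14.1%).

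Trl, which encodes the GAGA factor, was the group in which most members were on the low side. Of 10 members 9 had a negative log2 fold change against LexA, with a median of -0.38, whereas 43.1% of all genes were negative and the median over all genes was 0.21. The low side was not particular to the members, since all 7 partner gene lists described below had negative medians in Trl. These were -0.55 for SAGA, -0.44 for INO80, -0.41 for Sin3, Rpd3 and Ash1 and -0.39 for histone chaperones and variants. Other acetyltransferases had -0.30, other Tip60 and DOM subunits -0.27 and R2TP and TTT -0.04. The 4 members at an unadjusted p under 0.05 were MRG15 at -0.79, Ing3 at -0.81, Tip60 at -0.49 and E(Pc) at -0.44, and their adjusted p lay between 0.062 and 0.16. Tip60 was at 15.1, 16.5 and 12.9 CPM in Trl libraries and Ing3 at 5.16, 7.11 and 10.9 CPM, all below LexA, and 3 of 10 members did not overlap LexA, against 37.3% of all genes. Without Trl replicate 3, MRG15 was called (-0.93, adjusted p = 0.037). With DESeq2 size factors in place of TMM the median over all genes moved to 0.39 and that of the members to -0.22, with 9 of 10 still negative. The split of all called genes turned with that scaling too, to 120 higher and 98 lower, against 94 higher and 285 lower with TMM. Trl libraries also had 101 to 172 reads outside annotated features per 100 gene counts, against 79.3 to 92.4 in LexA. With that share as a covariate 9 of 10 members were still negative, but the medians drew together, at -0.19 over the members and -0.04 over all genes, and 65 genes were called in place of 379.

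**Figure D4:**
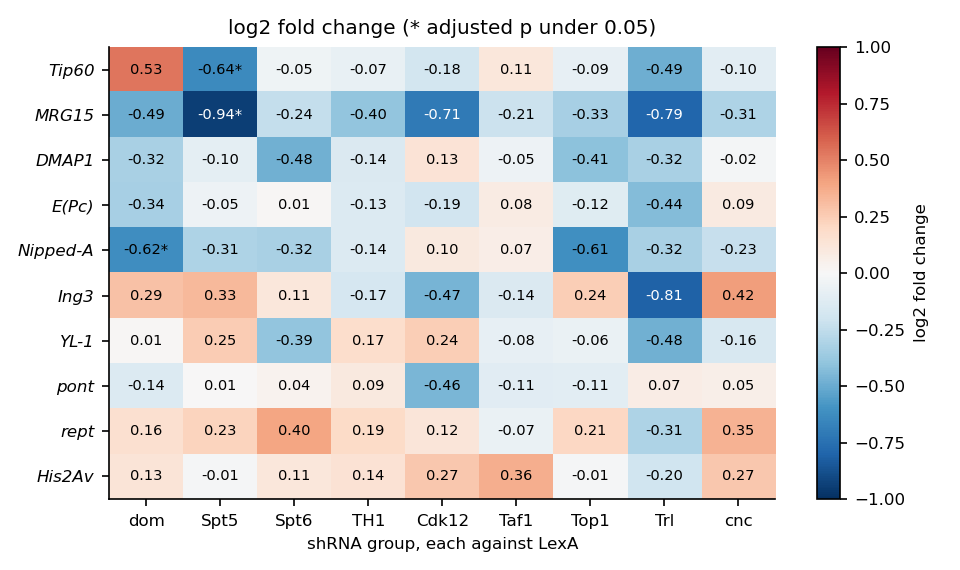
Log2 fold change of each member (rows) in each of 9 knockdown groups against LexA (columns), on a colour scale from blue for lower to red for higher, with a star at an adjusted p under 0.05. The 3 stars are Nipped-A in dom and Tip60 and MRG15 in Spt5, the MRG15 row is below 0 throughout, and the Trl column is below 0 in 9 of 10 members.

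Over 30 libraries the closest pairs among the members and dom were E(Pc) with dom (Pearson r = 0.812, Spearman rho = 0.715) and Ing3 with dom (r = 0.749, rho = 0.675). For both, the adjusted permutation p of r over 55 pairs was 2.7e-04 and that of rho 0.0016. All permutation p of this report come from shuffling the 30 libraries freely. Replicates of a group are thereby treated as independent, so these p take no account of the groups. Within the 24 libraries other than Spt5 and Cdk12 r was 0.878 and 0.699, within the other 6 it was 0.947 and 0.989, and without the 2 libraries farthest from the median it was 0.660 and 0.672. For deviations from group means r was 0.835 and 0.81.

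The same 3 genes followed the share of reads outside annotated features, with 11 such relations computed. Pearson r with the log2 of that share was -0.844 for dom, -0.825 for Ing3 and -0.740 for E(Pc), and Spearman rho was -0.742, -0.806 and -0.706. The permutation p of r was 1.0e-05 for each, the smallest that 100000 permutations can give (adjusted p = 3.7e-05), and the adjusted p of rho was 5.5e-05, 5.5e-05 and 7.3e-05. Pearson r was -0.814, -0.800 and -0.737 within the 24 libraries and -0.992, -0.976 and -0.929 within the other 6. Without the 2 farthest libraries it was -0.747, -0.787 and -0.627, and for deviations from group means -0.856, -0.702 and -0.788. The relation of rept was weaker (r = -0.432, rho = -0.442, adjusted permutation p = 0.048 and 0.043, and r = -0.361 without the 2 farthest libraries). That of DMAP1 did not pass (r = -0.354, rho = -0.257, adjusted permutation p = 0.12 and 0.31). For deviations from group means, however, r was -0.602 for DMAP1 and -0.217 for rept.

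Tip60 did not follow that share over all libraries (r = -0.219, rho = -0.340, adjusted permutation p = 0.33 and 0.15). Nor did MRG15 (r = -0.157, rho = -0.236, adjusted permutation p = 0.50 and 0.33) or Nipped-A (r = 0.0106, rho = 0.170, adjusted permutation p = 0.96 and 0.45). Within the 24 libraries r was -0.509 for Tip60 and -0.544 for MRG15, and within the 6 Spt5 and Cdk12 libraries it was 0.791 and 0.837. With the share as a covariate in the fit, Tip60 in dom against Spt5 had a log2 fold change of 1.18. Tip60 and MRG15 were called in Spt5 against LexA at -0.67 and -0.94. That covariate had 1 slope for all 30 libraries. It could not adjust for relations of opposite sign in the 24 and the 6 libraries, so these values do not show that the calls are free of the share.

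After E(Pc) and Ing3 with dom, the next pairs by r were Nipped-A with DMAP1 (r = 0.627, rho = 0.589, adjusted permutation p = 0.0038 and 0.014) and Ing3 with E(Pc) (r = 0.598, rho = 0.544, adjusted permutation p = 0.0069 and 0.024). Tip60 and MRG15 followed and went together moderately (r = 0.577, rho = 0.564, adjusted permutation p = 0.0092 and 0.020 over 55 pairs, and r = 0.519 without the 2 farthest libraries). The r was 0.354 within the 24 libraries, 0.828 within the 6 Spt5 and Cdk12 libraries and 0.478 for deviations from group means. The log2 ratio of Tip60 over MRG15 was 0.74, 1.22 and 1.26 in dom, 0.48, 0.71 and 0.12 in Spt5, and 0.07, -0.15 and 0.32 in LexA, so that the dom libraries lay above all LexA libraries. The Cdk12 libraries, at 0.54, 0.62 and 0.63, and the Taf1 libraries, at 0.40, 0.43 and 0.38, also lay above all LexA libraries.

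The genes outside the complex whose log2 CPM ran most like Tip60 over the 30 libraries, among 7402 genes compared, were CarT (Pearson r 0.877, Spearman rho 0.786), Serinc (0.857, 0.848) and lace (0.852, 0.771). CarT is a carcinine transporter that photoreceptors use to recycle histamine, and lace encodes a subunit of serine palmitoyltransferase. CarT had log2 fold changes of 1.12 in dom (adjusted p = 0.021) and -1.53 in Spt5 (adjusted p = 0.0037) against LexA. Serinc had 0.39 in dom (adjusted p = 0.28) and -0.57 in Spt5 (0.072), neither called, and lace had 0.66 in dom (0.032), called, and -0.35 in Spt5 (0.28), not called. For His2Av they were Set1 (0.781, 0.758), an H3K4 methyltransferase, Tango11 (0.762, 0.773) and nsl1 (0.750, 0.726). These correlations describe libraries that share scaling and group structure, and carry no test.

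Of the other subunits of the Tip60 and DOM complexes, 8 of 9 listed genes were tested. In dom against LexA 1 of 8 was higher and 2 were lower, and in Spt5 against LexA edgeR called 0, with 0 at an unadjusted p under 0.05 and 0 by DESeq2. Over all genes edgeR called 10.4% in dom and 16.5% in Spt5. Hcf, a transcriptional coregulator, was at 168, 208 and 189 CPM in dom, against 291, 355 and 318 CPM in LexA, a log2 fold change of -0.77 ± 0.19 (SE, edgeR adjusted p = 0.0080). Brd8, a bromodomain subunit, was at 8.07, 12.4 and 11.2 CPM in dom, against 17.3, 20.7 and 16.2 CPM in LexA (-0.77 ± 0.25, adjusted p = 0.044). Neither gene's groups overlapped. Act87E, an actin gene, was at 39.9, 77.4 and 64.9 CPM in dom, against 37.7, 25.9 and 33.9 CPM in LexA (0.90 ± 0.30, adjusted p = 0.0497), but near-identical actin genes make its counts uncertain. With 1 of the 6 libraries left out, Hcf lost its call without dom replicate 3 and without LexA replicate 2 (adjusted p = 0.067 and 0.066). Brd8 lost it without any 1 of the 6 (adjusted p from 0.063 to 0.21), and Act87E without any but dom replicate 1 (0.073 to 0.23).

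Ada2b, an adaptor of the Gcn5 acetyltransferase in SAGA, the complex that shares Nipped-A, was the most clearly changed gene of the partner lists. It was at 78.8, 125 and 114 CPM in dom libraries, against 39.7, 42.2 and 37.5 CPM in LexA libraries. The log2 fold change was 1.41 ± 0.18 (SE, adjusted p = 6.3e-06 by edgeR), called in 13 of 13 alternatives at 1.25 to 1.55. Against Spt5 it was higher in dom by 1.66 on the log2 scale (adjusted p = 3.8e-07), called in 12 of 12 alternatives. Its exons share 758 bases (28.8%) with PolI on the opposite strand, and PolI itself was at 0.10 ± 0.23 in dom against LexA (SE), not called. Of the other 11 tested SAGA genes edgeR called 0 in dom, where 10.4% of all genes were called. Over the 12 an unadjusted p under 0.05 was reached by 4, and DESeq2 called 3 (Ada2b, Sgf29 and Spt20). Over all 14888 genes DESeq2 called more than edgeR, 2422 in dom and 3309 in Spt5. The share of all genes at the unadjusted p was not counted. In Spt5, where 16.5% of all genes were called, edgeR called 0 of the 12, with 2 at an unadjusted p under 0.05 and 2 by DESeq2. Gcn5 alone was lower in Trl (-0.91, adjusted p = 0.045).

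**Figure D5:**
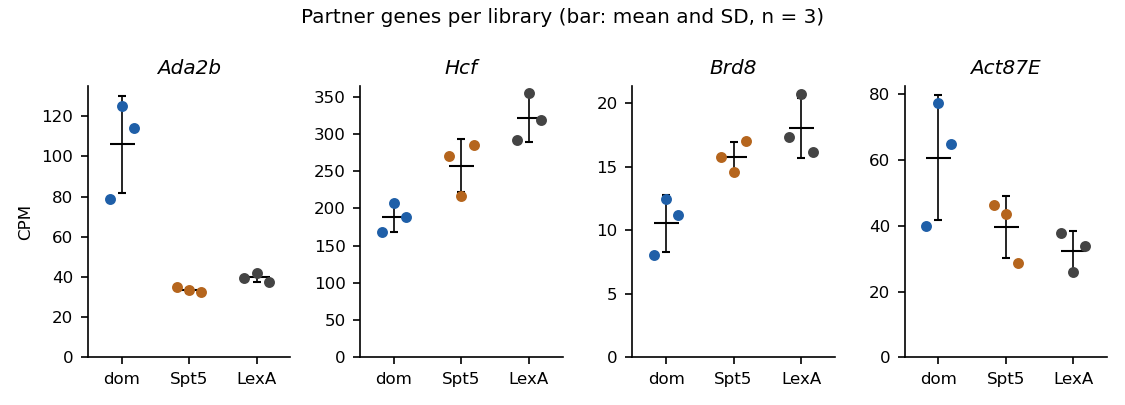
CPM of Ada2b, Hcf, Brd8 and Act87E in each dom, Spt5 and LexA library, with the mean and SD (n = 3) as bars. The dom libraries lie above all Spt5 and LexA libraries for Ada2b and below all LexA libraries for Hcf and Brd8.

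In the remaining lists edgeR called few genes. Over all genes 10.4% were called in dom and 16.5% in Spt5, and single calls in such short lists cannot be told apart from that background. Among 3 tested INO80 genes, pho, a DNA-binding Polycomb recruiter, was lower in Spt5 (-0.70, adjusted p = 0.043) and 0 were called in dom by edgeR, at an unadjusted p under 0.05 or by DESeq2. Among 4 genes of the Sin3, Rpd3 and Ash1 complexes, which share MRG15, the corepressor scaffold Sin3A was lower in dom (-0.67, adjusted p = 0.022) and the deacetylase HDAC1 was higher in Spt5 (0.65, adjusted p = 0.044). Among 10 histone chaperone and variant genes, the FACT subunit Ssrp was higher in dom (0.90, adjusted p = 0.021) and the H2A-H2B chaperone Nap1 in Spt5 (0.98, adjusted p = 0.0096). Of 7 other acetyltransferases, chm was lower both in dom (-0.73, adjusted p = 0.0085) and in Spt5 (-0.54, adjusted p = 0.038), comparisons that share the LexA libraries. Leaving out 1 library ended most of these calls. The adjusted p of pho reached 0.13 to 0.24 without Spt5 replicates 1 or 2 or LexA replicates 2 or 3, that of Sin3A 0.068 to 0.15 without any but LexA replicate 3, and that of HDAC1 0.059 to 0.22 without any but Spt5 replicate 3. The call of Ssrp was lost without dom replicate 2 and LexA replicates 1 and 2 (adjusted p from 0.069 to 0.13), and that of Nap1 without Spt5 replicates 1 and 2 and LexA replicate 1 (0.058 to 0.074). The call of chm was lost in dom without LexA replicate 2 (0.075), and in Spt5 without Spt5 replicates 1 and 2 and LexA replicates 1 and 2 (0.096 to 0.21). Nap1 exons share 1060 bases (67%) with asRNA:CR45926 on the opposite strand. Of the 2 tested R2TP and TTT genes edgeR called 0 in dom and 0 in Spt5, where 1 and 0 lay at an unadjusted p under 0.05 and DESeq2 called 1 and 0. Of the chaperone and variant genes 4 in dom and 4 in Spt5 lay at that unadjusted p, and DESeq2 called 3 and 3. For Sin3, Rpd3 and Ash1 these counts were 2 and 1, and 2 and 1 by DESeq2. For the other acetyltransferases they were 1 and 1, and 2 and 1 by DESeq2. DESeq2 called 2422 and 3309 of all 14888 genes in dom and Spt5. List medians in dom against LexA ran from -0.44 for INO80 to 0.69 for R2TP and TTT, beside 0.21 over all genes, and in Spt5 from -0.21 for SAGA to 0.44 for the chaperones, beside 0.05.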

How the data were processed

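The deposited files give, for each library, whole-number read counts by gene. According to the authors' entry in the submitters' processing notes, Trimmomatic 0.39, HISAT2, HTSeq and the build BDGP6 were used. Neither strand handling nor the counted feature or annotation version is given in the sources used here. Per the labels' protocols, libraries started from 10 ng of nuclear RNA, with ribosomal RNA depleted. Titles set the groups and replicate numbers. The genotype labels of 6 groups change from replicate to replicate within a title and were left aside. Transgene rows and the 5 summary rows, 51.8% to 74.5% of reads, were kept out of library sizes and tests. With no molecular identifiers, depth sets counting error only.

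Ensembl release 115 for BDGP6 supplied symbols, positions and exon lengths, and 17710 of 17807 rows had a symbol. edgeR 4.0.16 in R 4.3.3 tested the counts with its two-sided quasi-likelihood F test after TMM scaling. Its expression filter, with minimum count 10 and minimum total 15, kept 14888 genes. All 30 libraries shared 1 fit with a mean per group. Benjamini-Hochberg adjustment ran over all tested genes of a comparison, and genes under an adjusted p of 0.05 are named as called. The SE follows from the log2 fold change and F. The 95% intervals reach 1.96 SE to each side. Log2 CPM used a prior count of 2. Permutations of correlations shuffled all 30 libraries without regard to group. The fit was tested on simulated data.

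The members, 7 lists of partner genes, 7 lists of cell type markers and the tests were chosen with earlier results of these data known. Levels in every library are given for Tip60, His2Av and every member called in a comparison, and partner genes were named where called in dom or Spt5 against LexA, up to 4 per list. The values of Ing3 and E(Pc) by library and the naming of Gcn5 in Trl were added after their values were seen. For Tip60 and His2Av, the 3 genes with the highest r were named. Same replicate numbers were not taken to pair libraries. No 2 libraries of a group agreed within sampling noise. Alternatives were DESeq2 1.42.0, its size factors in place of TMM, no filter, a replicate block, the log2 share of reads outside features as a covariate, only the 6 libraries compared, Cdk12 in place of LexA, the 24 libraries without Spt5 and Cdk12, and each replicate left out.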

Additional observations from a re-analysis of the deposited data

How the results depend on the processing

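The direction of every called member was the same in all alternatives run. The count of members called in Spt5 against LexA, 2, ranged from 0 to 2 with 1 library left out, and was 0 with only the 6 libraries compared and 0 with Cdk12 in place of LexA. In dom against LexA the count of 1 ranged from 0 to 1 with 1 library left out, and was 2 with DESeq2 and 3 with only the 6 libraries. Over all genes DESeq2 called 2422 of 14888 there, against 1543 by edgeR, and the fit of 6 libraries called 2565 of 11763. In Top1 against LexA DESeq2 called 1 where edgeR called 0. Against the 7 other knockdowns, the count of 1 in dom was 2 with DESeq2 size factors, 2 with no filter, 3 with DESeq2 and 2 with the covariate for reads outside features, while that in Spt5, 2, ranged from 0 to 3 with 1 library left out. In dom against Spt5 the count of 1 ranged from 1 to 2, and in the test of any difference the count of 3 ranged from 1 to 4, with 1 library left out. In Trl against LexA the range was 0 to 1. The causes of these differences were not tested.

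Replicate numbers gave no strong pairing of the libraries, but a weak shared part was not tested against chance. Deviations from group means correlated at 0.049 for same numbers and -0.024 for others. Of 30 libraries, 15 correlated best with their own number, out of 3 possible numbers. In no knockdown were all 3 pairs with LexA over 0.1. With a replicate block, 1 member (MRG15) was called in Trl against LexA, and the counts of members called in the other comparisons were the same. Over all genes the block moved the count called in Trl against LexA to 760, against 379 without it.

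Low counts of rept, pont and YL-1 limit what can be detected in them, since 36.5, 44 and 61 reads were the medians per library.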
